A study of Mus musculus with 375 samples.

Results

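The 41 genes described here encode the peroxisome proliferator-activated receptors (PPARs), their partner Rxra, and proteins that activate, import, oxidise or store fatty acids. They were chosen by name as members of this pathway, with earlier results of these data known. All 41 were found among the 23420 genes of the table. By role they comprise 4 receptors, 5 genes of fatty acid activation and transport, 4 of the carnitine shuttle, 11 of mitochondrial beta-oxidation, 3 of electron transfer from acyl-CoA dehydrogenases, 5 of peroxisomal oxidation and proliferation, Eci2, whose product is placed in both compartments, and 8 other known PPAR targets. PPARs are nuclear receptors that bind fatty acids, pair with a retinoid X receptor on DNA and switch on genes of lipid use. Long-chain fatty acids are joined to coenzyme A, passed into mitochondria by the carnitine shuttle and shortened there in repeated cycles of dehydrogenation, hydration, dehydrogenation and thiolysis, while very long chains are shortened in peroxisomes. In the intestine this pathway is known for its activity in absorptive cells and in the stem cells of the crypt base, where PPARs have been linked to the response to dietary fat.

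The cells were taken from mouse small intestine, sorted for Lgr5, a receptor of crypt base stem cells, and sequenced one by one with Smart-seq2, a plate method that makes full-length cDNA. The mice were fed a control or a high-fat diet (HFD), and the sample titles split each diet into set 1 and set 2. Genotype, strain, age, the number of animals behind a set, the fat content of the diet and its duration are not stated in the labels, and all 4 sets share the Lgr5 sort. Because nothing ties a set to a separate animal, the p-values measure only the spread between sets. Cells with at least 2000 genes above 0 were kept, which left 93 and 91 control cells and 91 and 92 HFD cells. Values are TPM, a level per length of transcript scaled to the same total in every cell, averaged over the cells of a set. Where 4 values stand in a row, they run from control set 1 and control set 2 to HFD set 1 and HFD set 2.

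Read depth cannot be recovered from TPM and is unknown; the sets had medians of 6130 to 6895 genes per cell. The ribosomal RNA precursor Rn45s took between 18.6% and 39.1% of TPM, most in control set 1 and least in HFD set 2. Leaving it out of the total moved the median log2 fold change of all genes from 0.13 to −0.05, so fold changes below are to be read against 0.13. Lgr5 was at 1 TPM or more in 95.7%, 93.4%, 95.6% and 94.6% of cells. The summed level of 12 stem cell markers, most of it Olfm4, was 8313, 10498, 10767 and 13233 TPM. Both HFD sets lay above both control sets for 5 of the 12 (29.5% of all genes) and below them for 2 (12.3%). The summed level of 15 enterocyte markers was alike in the sets, at 742, 707, 758 and 793 TPM. That of 9 Paneth cell markers was 71.3, 33.7, 4951 and 497 TPM, and both HFD sets lay above both control sets for 7 of the 9. The summed level of 9 goblet cell markers was 503, 75.8, 636 and 546 TPM. Markers of other cells were low, with sums of at most 12.8 TPM for 8 enteroendocrine, 3.84 TPM for 7 tuft, 3.28 TPM for 10 leukocyte and 2.09 TPM for 10 stromal and adipocyte genes, and the adipocyte genes Adipoq and Plin1 and the collagen gene Col1a1 were listed at 0.

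Most of the fatty acid oxidation genes were expressed at a high level in Lgr5-sorted cells of either diet, whereas the receptors were low. Hadh, which carries out the second dehydrogenation of short acyl chains, had the highest mean of the 41 at 394 TPM, above 98.1% of the tested genes. It was followed by the mitochondrial uncoupling protein family member Ucp2 at 377 TPM, the mitochondrial thiolase Acaa2 at 372 TPM and the trifunctional protein subunit Hadhb at 309 TPM (means of the 4 sets). The set values of these neighbours in the order overlapped, so their order is not resolved by the spread between sets. The sum of the 11 mitochondrial beta-oxidation genes was 1539, 1921, 1949 and 2343 TPM. The sum of the 5 peroxisomal genes was 276, 372, 366 and 393 TPM, and that of the 4 receptors was 32.8, 23.2, 27.7 and 24.4 TPM. A cell held a median of 31, 29, 31 and 30 of the 41 genes at 1 TPM or more.

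**Figure D1:**
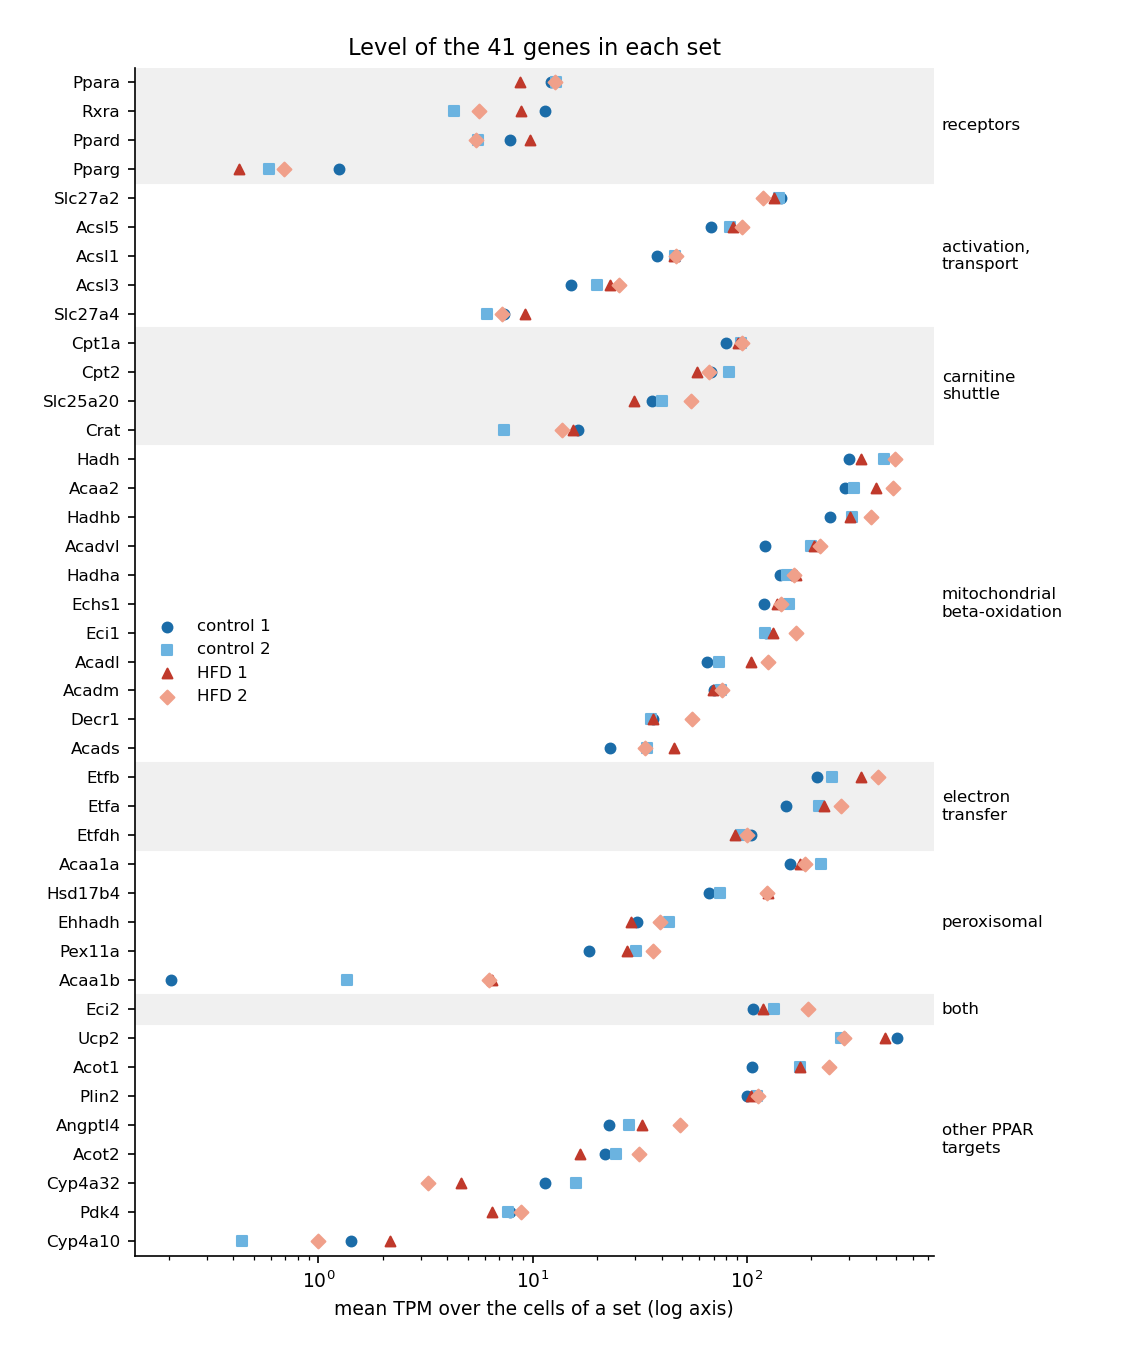
Mean TPM of each of the 41 genes in each set on a log axis, with genes grouped by role and ordered by level within a role; each point is the mean over the 91 to 93 cells of a set. Mitochondrial genes lie to the right and receptors to the left, and Acaa1b and Cyp4a32 are spread most clearly by diet.

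Between the diets, 1 of the genes rose in HFD cells and 1 fell. Of the 41, 40 had a mean of at least 1 TPM and were tested with limma on log2(mean TPM + 1), while Pparg was not. The peroxisomal thiolase Acaa1b was called higher, the fatty acid hydroxylase Cyp4a32 was called lower, and 38 did not pass an adjusted p of 0.05. Acaa1b met the filter of 1 TPM only through its level in the HFD sets. Over all 11665 genes tested, 0.369% were called higher and 0.137% lower. An unadjusted p under 0.05 was reached by 6 members with a higher level (Acaa1b, Hsd17b4, Acadl, Etfb, Angptl4 and Acot1), against 8.62% of all genes, and by Cyp4a32 with a lower one, against 2.48%. Both HFD sets lay above both control sets for 12 of the 40, near the 29.5% of all genes, and below them for 3 of the 40, against 12.3%. The median log2 fold change over the 40 was 0.21, 0.084 above that of all genes, which is less than the spread of that difference between sets (0.12).

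The split between higher and lower values moved with the scaling. With TPM as deposited, 28 of 40 members had a positive fold change and 12 a negative one, near the 62.5% of all genes with a positive one. Without Rn45s in the total 20 of 41 were positive and 21 negative, again near the 45.1% of all genes. On that scale both HFD sets lay above both control sets for 12 of 41 (17.9% of all genes) and below them for 10 of 41 (17.3%). limma then called 0 of the 41 and 6 of 12122 genes, and 4 members with a higher level (against 3.48% of all genes) and 2 with a lower one (against 2.99%) had an unadjusted p under 0.05. Acadl, Acadvl, Acaa2, Acaa1b, Hsd17b4, Etfa, Etfb, Angptl4, Acsl3 and Acsl5 had both HFD sets above both control sets on either scale, and Cpt2, Slc27a2 and Cyp4a32 had both below on either scale. The summed TPM of all 41 was 3677, 4178, 4401 and 4995 as deposited and 6043, 5552, 6033 and 6138 without Rn45s.

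**Figure D2:**
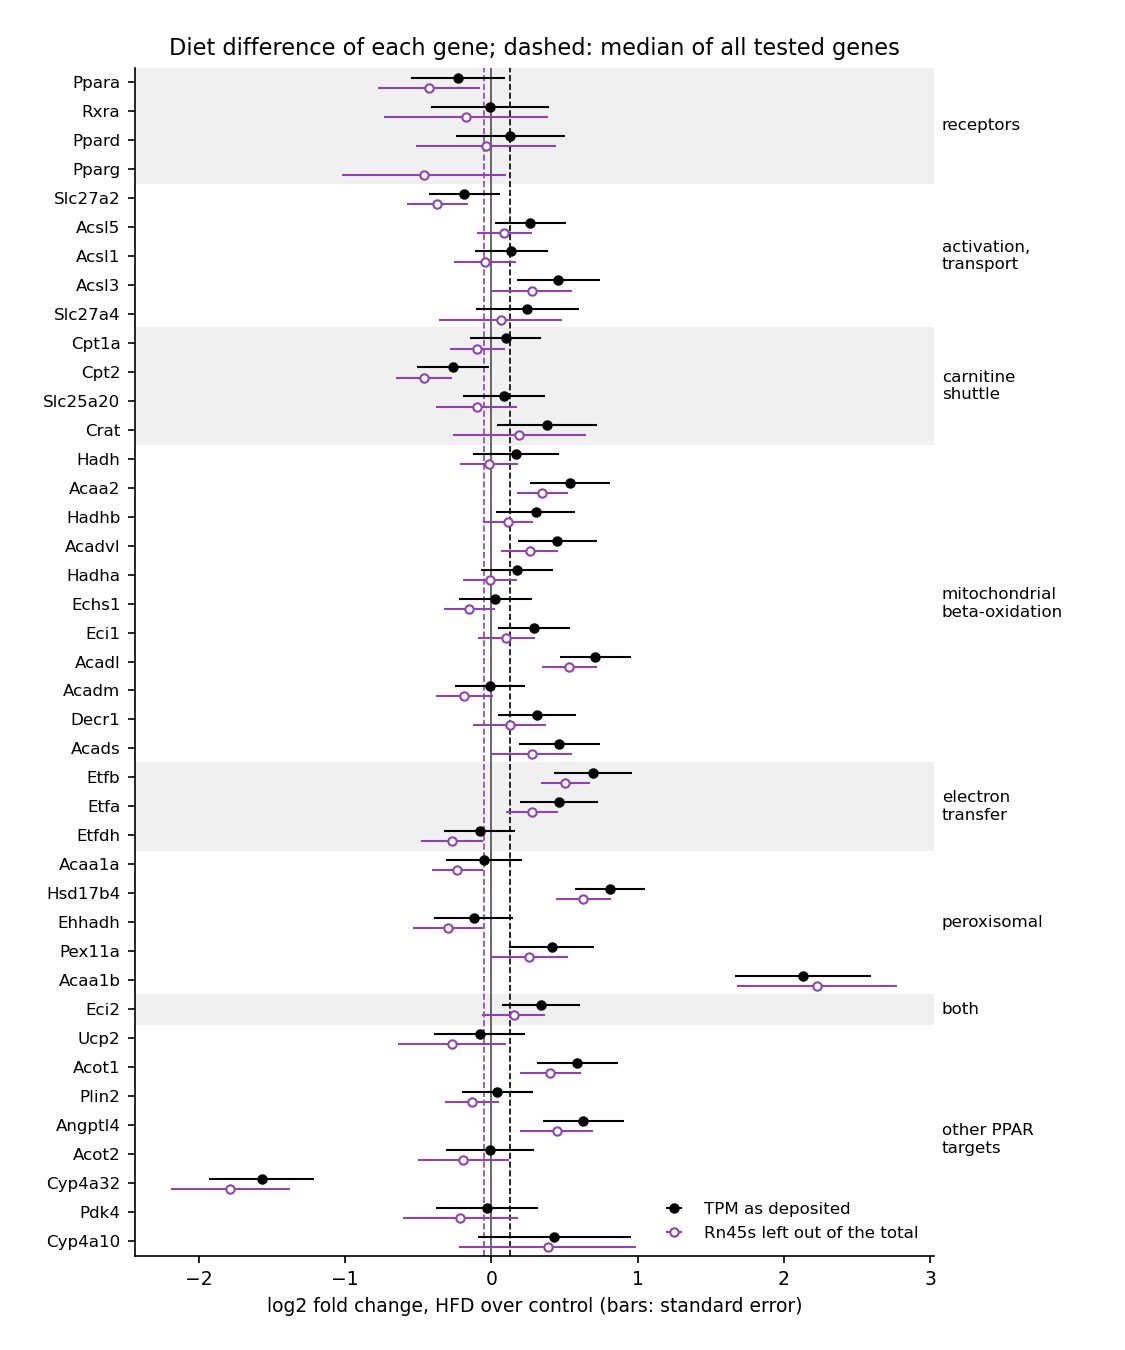
Log2 fold change of each gene, HFD over control, with its standard error from limma (2 sets per diet); filled points use TPM as deposited, open points leave Rn45s out of the total, and dashed lines mark the median of all tested genes on each scale. Acaa1b at 2.13 and Cyp4a32 at −1.57 stand apart from the other members on both scales, and Pparg was tested only without Rn45s.

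The receptors were expressed at a low level and none was called. Ppara, the receptor that drives fatty acid oxidation in liver and gut, was at 12.2, 12.8, 8.74 and 12.7 TPM, with a log2 fold change of −0.23 (SE 0.32, limma adjusted p = 0.844). HFD set 1 lay lowest and the diets overlapped; without that set the value was 0.018. Ppard, the PPAR expressed most widely across tissues, was at 7.85, 5.55, 9.77 and 5.44 TPM (0.13, SE 0.37, limma adjusted p = 0.930), and the diets overlapped; the value was −0.088 without control set 2, −0.24 without HFD set 1 and −0.036 with Rn45s left out. Pparg, the receptor of adipocyte differentiation, was at 1.24, 0.584, 0.425 and 0.686 TPM in 5, 5, 5 and 1 cells, and single cells carried between 54.1% and all of its level in a set. Rxra, the shared partner, was at 11.4, 4.27, 8.78 and 5.62 TPM, with set 1 above set 2 in either diet. Ppara was held by 61, 56, 45 and 62 cells and Ppard by 55, 34, 63 and 47 cells.

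The 5 genes that activate and import fatty acids had fold changes between −0.18 and 0.46, and none was called. The acyl-CoA synthetase Acsl5, a form abundant in intestine, was at 68.1, 83.3, 86.4 and 95.5 TPM, and Acsl3, a form of the endoplasmic reticulum and lipid droplets, at 15.1, 19.9, 23.1 and 25.4 TPM. For both the HFD sets lay just above the control sets. Slc27a2, an acyl-CoA synthetase for very long chains, was the most abundant of the 5 and was at 145, 141, 133 and 119 TPM, with both HFD sets below both control sets. Acsl1 and the fatty acid transport protein Slc27a4 overlapped between the diets. The carnitine shuttle genes were likewise not called. Cpt1a, the enzyme that commits acyl chains to mitochondrial entry, was at 80.2, 93.6, 90.9 and 94.7 TPM (0.10, SE 0.24, limma adjusted p = 0.918), and the diets overlapped; its value was −0.095 with Rn45s left out, −0.038 by median-ratio scaling and −0.013 without control set 1. Cpt2, which returns the acyl chain to coenzyme A inside the mitochondrion, was at 68.4, 82.5, 58.7 and 66.3 TPM, and both HFD sets lay below both control sets. The carrier Slc25a20, at 36.1, 40.2, 29.8 and 54.9 TPM, and the carnitine acetyltransferase Crat, at 16.2, 7.36, 15.5 and 13.8 TPM, overlapped.

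Of the 11 mitochondrial beta-oxidation genes, 10 had a positive fold change with TPM as deposited, where 62.5% of all genes did, and none was called. With Rn45s left out 7 of the 11 were positive, against 45.1% of all genes, and Acadm, Hadha, Hadh and Echs1 were negative. With TPM as deposited both HFD sets lay above both control sets for 5 of the 11, against 29.5% of all genes, and below them for 0, against 12.3%. With Rn45s left out they lay above for Acadl, Acadvl, Hadhb and Acaa2 (17.9% of all genes) and below for Acadm and Echs1 (17.3%). Acadl, the long-chain acyl-CoA dehydrogenase of the opening step, was at 65.0, 74.5, 105.0 and 125 TPM. Both HFD sets were higher than both control sets, and the fold change was 0.71 (SE 0.24, limma adjusted p = 0.267). Acaa2, the thiolase of the closing step, was at 288, 317, 400.4 and 482 TPM, again with both HFD sets higher (0.54, SE 0.27, limma adjusted p = 0.478). Acadvl, the very long-chain dehydrogenase, was at 121, 199.6, 206 and 220.3 TPM, and its groups were separated by a small gap. Hadha, the alpha subunit of the trifunctional protein, was at 143, 155, 169.7 and 166 TPM (0.17, SE 0.25, limma adjusted p = 0.844). Its HFD sets lay above its control sets as deposited, but its value was −0.011 with Rn45s left out. Eci1, an enoyl-CoA isomerase for unsaturated chains, was at 123, 122, 133 and 169 TPM. The medium-chain dehydrogenase Acadm was at 70.6, 76.1, 69.3 and 76.5 TPM, the flattest of the dehydrogenases. As deposited, Hadh, Hadhb, Acads, Echs1 and Decr1 overlapped between the diets.

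The dehydrogenases pass electrons to the electron transfer flavoprotein, whose subunits Etfa and Etfb were both higher in the HFD sets without being called. Etfb was at 212, 250.4, 341 and 408 TPM (0.69, SE 0.27, limma adjusted p = 0.343), and Etfa at 153, 219, 231 and 276 TPM. Both HFD sets lay above both control sets for either subunit. Etfdh, the dehydrogenase that hands the electrons on to ubiquinone, was at 105, 94.6, 88.1 and 100.7 TPM and overlapped.

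Among the peroxisomal genes Acaa1b rose: its mean was 0.782 ± 0.816 TPM under the control diet and 6.38 ± 0.147 TPM under the HFD (SD over 2 sets each). The sets were at 0.205, 1.36, 6.49 and 6.28 TPM, so both control sets were low and the HFD sets were alike. The log2 fold change was 2.13 (SE 0.46, limma adjusted p = 0.0278). Its control mean lay under 1 TPM, so it met the filter on low genes only through its level in the HFD sets. Without that filter the limma adjusted p was 0.668, and no gene was called. Acaa1b lies on chromosome 9 (119148023 to 119157093 on GRCm38) and encodes a thiolase of peroxisomal beta-oxidation. Its transcript was sparse: 6 of 93, 3 of 91, 15 of 91 and 10 of 92 cells held it, which are 6.45% (95% exact binomial interval 2.40 to 13.5%), 3.30% (0.686 to 9.33%), 16.5% (9.53 to 25.7%) and 10.9% (5.34 to 19.1%). Cells with Paneth or goblet markers numbered 10, 8, 23 and 17 in the sets. A single cell carried 93.0% of the Acaa1b level in control set 2 and 48.3% in HFD set 2. With the highest cell of each set left out the fold change was 2.24 (limma adjusted p = 0.0607), and without cells that held Paneth or goblet markers it was 2.13 (adjusted p = 0.0764). The call was also lost without control set 1 (1.65, adjusted p = 0.159) and without HFD set 1 (2.11, adjusted p = 0.0516), and over 15 alternatives the adjusted p ran from 0.00122 to 0.668. The size of the fold change depended on the scale: it was 0.52 when logs were averaged over cells (adjusted p = 0.0669) and 3.28 with a pseudocount of 0.1 (adjusted p = 0.0581), and neither was called.

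Acaa1b has a near copy, Acaa1a, on the same chromosome (119339676 to 119350299), and reads of these copies can be hard to tell apart. Their coding sequences in GENCODE M21 have the same length of 1272 bases and are 96.5% identical, with an identical stretch of 327 bases. Of all stretches of 50 bases in the coding sequence of Acaa1b, 37.9% also occur in that of Acaa1a. The stretch of 60 coding bases where the copies differ most, positions 259 to 318 from the start codon, is shown because it carries some of the letters that can assign a read to either gene. Positions outside it differ too, since 1228 of the 1272 coding positions are identical, and untranslated sequence was not compared. Capitals mark the 11 positions that differ in this stretch.
Acaa1b: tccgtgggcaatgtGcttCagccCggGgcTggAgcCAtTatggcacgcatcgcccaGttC
Acaa1a: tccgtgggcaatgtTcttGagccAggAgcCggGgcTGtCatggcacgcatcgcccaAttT
Acaa1a was far more abundant, at 160, 222, 177 and 187 TPM, and overlapped between the diets. Of the cells that held Acaa1b, 5 of 6, 3 of 3, 15 of 15 and 10 of 10 also held Acaa1a, which was itself present in 88 to 91 cells of each set. How many reads were shared between the copies was not tested.

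The remaining peroxisomal genes were not called. Hsd17b4, a bifunctional enzyme that hydrates and dehydrogenates peroxisomal acyl chains, was at 66.8, 74.97, 126 and 124 TPM. The diets did not overlap and the HFD sets nearly coincided (0.81, SE 0.24, limma adjusted p = 0.197). Ehhadh, the other bifunctional enzyme, was at 30.8, 43.4, 28.7 and 39.2 TPM, and Pex11a, which takes part in peroxisome division, at 18.3, 30.3, 27.6 and 36.5 TPM; both overlapped. Eci2 was at 107, 134, 119 and 193 TPM and overlapped as well. The median fold change of the mitochondrial beta-oxidation genes lay 0.18 above that of all genes and that of the peroxisomal genes 0.29 above it. The peroxisomal median includes Acaa1b, which met the filter on low genes only through its level in the HFD sets. The difference between these medians, mitochondrial minus peroxisomal, was −0.11 and smaller than its spread between sets of 0.15. It was 0.071 without control set 1 and −0.32 without control set 2. It was also above 0 with cells of at least 4000 genes (0.0239) and without cells of 6 or more enterocyte markers (0.0201). With a mean of at least 5 TPM, which leaves Acaa1b untested, it was 0.12, and with logs averaged over cells it was 0.057. Its sign thus depended on the sets, cells, filter and averaging used.

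Of the 8 other PPAR targets Cyp4a32 fell: its mean was 13.7 ± 3.21 TPM under the control diet and 3.95 ± 0.978 TPM under the HFD (SD over 2 sets each). The sets were at 11.4, 16.0, 4.64 and 3.25 TPM, and the diets did not overlap. The log2 fold change was −1.57 (SE 0.36, limma adjusted p = 0.0442). Cyp4a32 lies on chromosome 4 (115600969 to 115621602) and encodes a cytochrome P450 of the family that hydroxylates the far end of fatty acids. It was held by 50 of 93, 39 of 91, 26 of 91 and 18 of 92 cells, which are 53.8% (95% exact binomial interval 43.1 to 64.2%), 42.9% (32.5 to 53.7%), 28.6% (19.6 to 39.0%) and 19.6% (12.03 to 29.1%). These intervals cover counting error only. A single cell carried 37.3% of its level in HFD set 2, and with the highest cell of each set left out the value was −1.78 (limma adjusted p = 0.149). Without cells that held Paneth or goblet markers it was −1.78 as well (adjusted p = 0.0696). The call was lost without control set 2 (−1.34, adjusted p = 0.155) and without HFD set 2 (−1.36, adjusted p = 0.185), and over 16 alternatives the adjusted p ran from 0.0113 to 0.668.

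**Figure D3:**
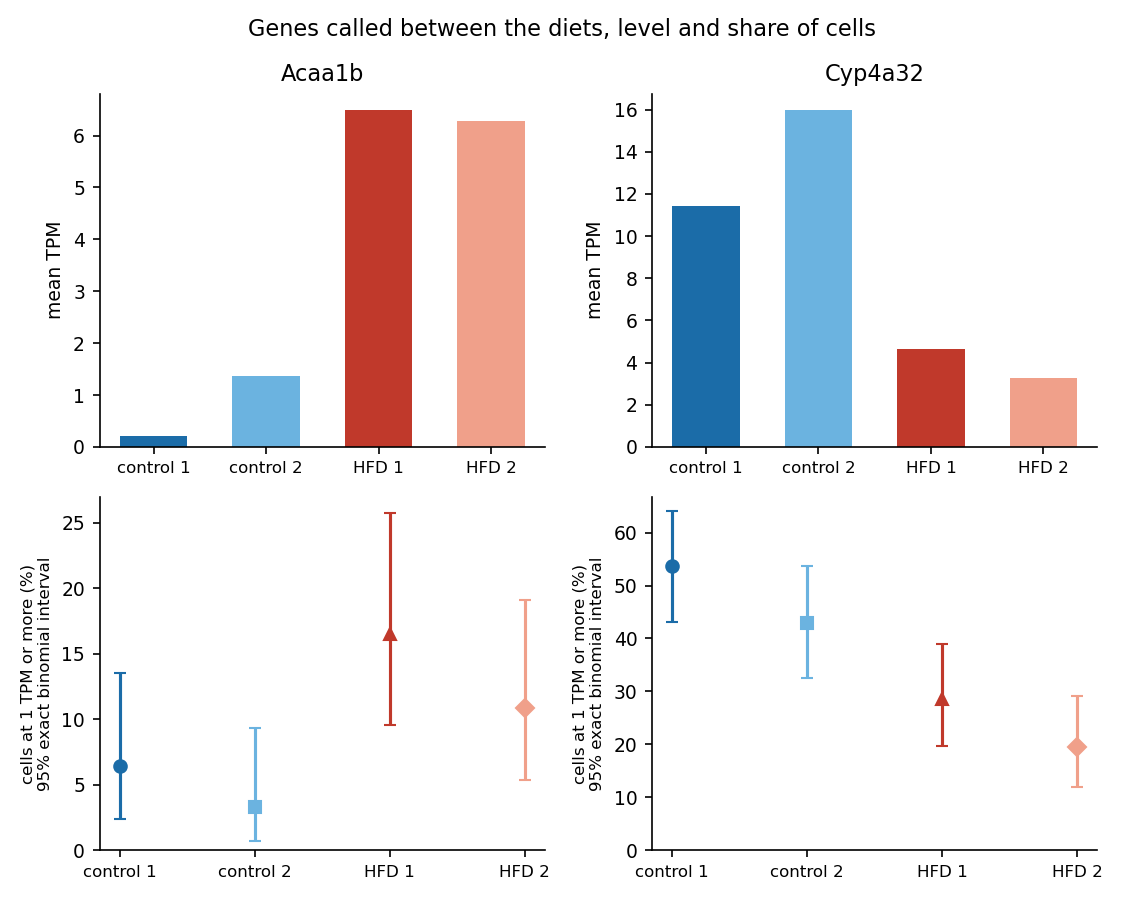
Mean TPM (bars, upper panels) and share of cells at 1 TPM or more with its 95% exact binomial interval (lower panels) of Acaa1b and Cyp4a32 in each set. Acaa1b was at 6.49 and 6.28 TPM in the HFD sets against 0.205 and 1.36 TPM in the control sets, and Cyp4a32 was held by 28.6% and 19.6% of HFD cells against 53.8% and 42.9% of control cells.

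Cyp4a32 also belongs to a group of near copies, so its level is uncertain gene by gene. Its coding sequence of 1527 bases is 97.2% identical to that of Cyp4a10 and 96.0% identical to that of Cyp4a31, and 34.6% of its stretches of 50 bases also occur in Cyp4a10. Coding positions 200 to 259, where Cyp4a32 and Cyp4a10 differ most, are shown for the same reason as above; capitals mark the 9 positions that differ.
Cyp4a32: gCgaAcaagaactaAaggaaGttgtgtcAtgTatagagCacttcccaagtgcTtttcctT
Cyp4a10: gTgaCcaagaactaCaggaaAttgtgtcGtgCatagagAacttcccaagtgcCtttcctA
Cyp4a10, a PPARα target in liver, was at 1.42, 0.440, 2.16 and 0.997 TPM and overlapped between the diets. It was found in 10, 6, 5 and 4 cells, of which 8, 6, 3 and 2 also held Cyp4a32. Cyp4a31 was at 0.302, 0.432, 0.354 and 0.659 TPM, below the filter on low genes.

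The other targets did not pass. Angptl4, a secreted inhibitor of lipoprotein lipase, was at 22.7, 28.3, 32.5 and 48.7 TPM, with both HFD sets higher (0.63, SE 0.27, limma adjusted p = 0.404). Its value was 0.34 without HFD set 2, 0.91 without HFD set 1 and 0.98 without cells of 6 or more enterocyte markers. Acot1, a cytosolic acyl-CoA thioesterase, was at 106, 178, 178 and 242 TPM. HFD set 1 lay level with control set 2, and the fold change was 0.59 (SE 0.28, limma adjusted p = 0.437). It was 0.22 without control set 1, 0.95 without control set 2 and 0.37 without HFD set 2. Its mitochondrial relative Acot2, whose coding sequence is 85.6% identical and which lies beside it on chromosome 12, was at 21.8, 24.4, 16.6 and 31.4 TPM. Pdk4, a kinase that inhibits pyruvate dehydrogenase, was at 7.82, 7.71, 6.48 and 8.86 TPM (−0.03, SE 0.35, limma adjusted p = 0.984). The diets overlapped, and the Pdk4 value was 0.17 without HFD set 1 and 0.13 when logs were averaged over cells. Plin2, a coat protein of lipid droplets, was at 100.3, 112, 105 and 113 TPM. Ucp2, a mitochondrial carrier, was at 506, 277, 441 and 284 TPM, so that set 1 exceeded set 2 within each diet by more than the diets differed. The median fold change of the targets exceeded that of the receptors by 0.025, below its spread between sets of 0.43.

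The share of cells that held a member did not differ detectably between the diets. Averaged over the 41 genes it was 75.3%, 70.3%, 74.6% and 71.1%, a difference of 0.0219 percentage points with a spread between sets of 3.08 (exact two-sided permutation p = 1 over 4 sets, where 0.333 is the smallest possible). By role the mean share ran from 34.9% to 46.2% for the receptors and from 91.8% to 95.1% for mitochondrial beta-oxidation. Set 1 had the higher mean share in either diet, and also more genes per cell.

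By mean TPM, cells with cycling markers carried less of many members than the other cells of the same set. This depended on the averaging, since with logs averaged over cells more members were higher than lower in all 4 sets. Cells with at least 3 of 15 cycling markers at 10 TPM or more numbered 49, 47, 65 and 49, and 36 and 30 cells of the 367 held exactly 2 and 3 markers, next to the limit. Of the 40 tested members, 14 were lower in the cycling cells of all 4 sets, against 10.7% of all genes, and 6 were higher in all 4, against 16.2%. Those lower in all 4 sets were Ppara, Slc25a20, Acadm, Acads, Hadhb, Hadh, Eci1, Acaa1a, Etfdh, Angptl4, Plin2, Acot1, Acsl1 and Cyp4a32. Angptl4 was at 13.6, 17.4, 28.3 and 41.2 TPM in cycling cells and at 32.9, 40.0, 42.9 and 57.3 TPM in the others, a mean log2 ratio of −0.85 ± 0.39 (SD over 4 sets). Acot1 had a ratio of −0.80 ± 0.22 and Slc25a20 of −0.67 ± 0.16. Hadh, the most abundant member, was at 275, 401, 325 and 442 TPM in cycling cells and at 331, 482, 378 and 549.7 TPM in the others, a small difference repeated in every set (−0.27 ± 0.04). The 6 members higher in all 4 sets were Cpt1a (0.17 ± 0.11), Echs1, Etfa (0.26 ± 0.08), Etfb, Ucp2 and Acsl3.

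These ratios are descriptions without a test, since the classes were cut from genes of the same cells. Cycling cells had more genes detected, with medians of 7217, 6752, 7085 and 6820 against 6628, 5669.5, 6109.5 and 5774 in the other cells, and the part of this in the ratios was not tested. When logs were averaged over cells instead of TPM, 4 members were lower in all 4 sets (4.83% of all genes) and 11 were higher (32.1%). Without cells that held Paneth or goblet markers, 13 were lower in all 4 sets (10.2% of all genes) and 2, Cpt1a and Etfa, were higher (15% of all genes). Ppara, Acads, Etfdh and Cyp4a32 were then no longer among the lower members, nor Echs1, Etfb, Ucp2 and Acsl3 among the higher ones.

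**Figure D4:**
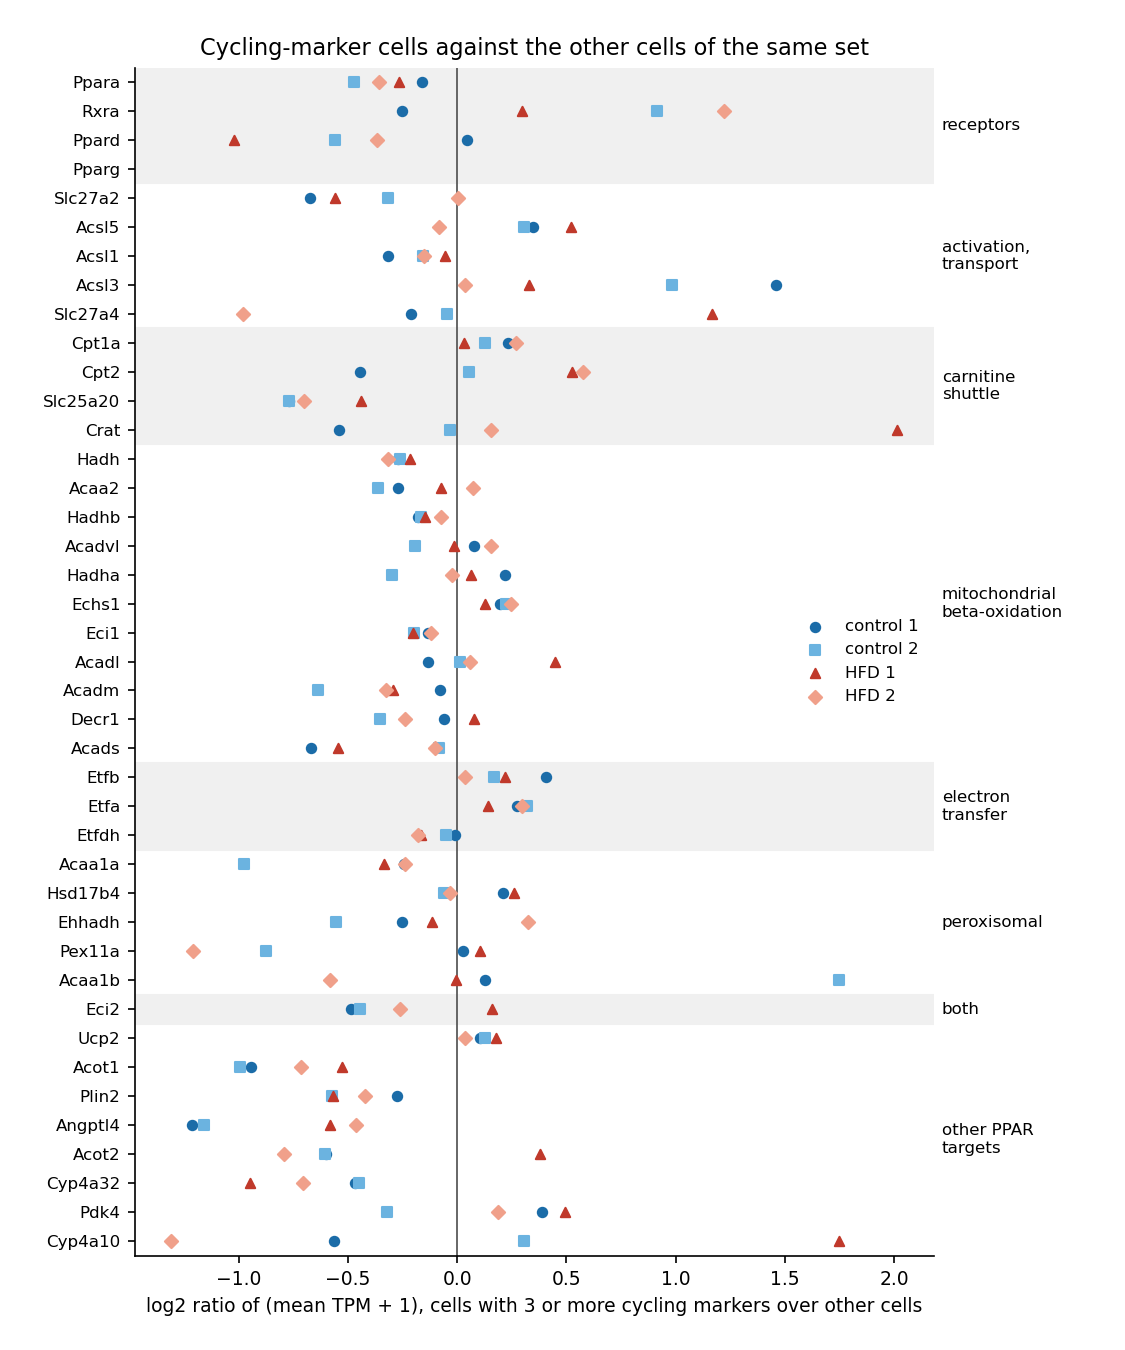
Log2 ratio of mean TPM + 1 in cells with at least 3 cycling markers over the other cells of the same set, 1 point per set and gene, grouped by role. For Hadh, Hadhb, Acadm, Acot1, Plin2 and Angptl4 all 4 points lie left of 0, and for Cpt1a, Echs1, Etfa and Etfb all 4 lie right of it; sparse genes such as Acaa1b and Cyp4a10 scatter widely.

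Cells with most enterocyte markers carried slightly more of several members. At least 3 of 15 enterocyte markers at 10 TPM or more were held by 359 of 367 cells, so the class was cut at 6 markers, a limit chosen after the data were seen, which put 30, 30, 34 and 25 cells in it; 127 cells held exactly 5 and 81 exactly 6. Of the 40 members, 9 were higher in these cells in all 4 sets, against 6.81% of all genes, and 0 were lower in all 4, against 7.77%. The 9 were Cpt1a, Hadha, Acaa2, Etfa, Etfdh, Ehhadh, Rxra, Pdk4 and Slc27a4. Cpt1a was at 110.5, 99.0, 113 and 125 TPM in these cells and at 65.8, 91.0, 77.9 and 83.4 TPM in the others (0.49 ± 0.26, SD over 4 sets). Hadha was at 168, 178, 182 and 185 TPM against 131, 144, 163 and 159 TPM (0.26 ± 0.09). When logs were averaged over cells, 15 were higher (13.2% of all genes) and 2, Ppard and Slc27a2, were lower (4.22%). Cells of 6 or more enterocyte markers had medians of 6971, 6072, 7109 and 6761 genes, against 6817, 6187, 6535 and 6179 in the others. The part of this in the ratios was not tested, and these ratios too are descriptions without a test.

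Most genes of the same pathways outside the 41 did not pass the test. Of 108 listed genes 105 were in the table and 85 were tested. They were listed with earlier results of these data known, so their counts are descriptions and no independent support. limma called 1 higher (0.369% of all genes) and 84 did not pass. Their median fold change lay 0.028 above that of all genes. By list this difference was −0.011 for other mitochondrial genes, 0.061 for other peroxisomal genes and −0.075 for PPAR partners and co-regulators. It was 0.18 for PPAR targets outside oxidation, of which 20 of 32 were tested. Of these 20, 5 were higher at an unadjusted limma p under 0.05 (8.62% of all genes) and 1 lower (2.48%). Both HFD sets lay above both control sets for 10 of the 20 (29.5%) and below them for 2 (12.3%). The called gene was Fabp1, which encodes a fatty acid binding protein of liver and gut, at 27.6, 52.0, 373 and 459 TPM (3.41, SE 0.28, limma adjusted p = 3.63e-08). Mgll, which releases fatty acids from monoacylglycerol, was at 2.52, 0.402, 5.66 and 11.2 TPM (2.02, SE 0.47, adjusted p = 0.0537). The coactivator Ppargc1a was at 4.59, 4.38, 6.10 and 5.60 TPM (0.32, SE 0.38, limma adjusted p = 0.807), and Cpt1b, the muscle form of the carnitine palmitoyltransferase, was under the filter at 0.241 to 1.77 TPM.

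PPARs and RXR bind a direct repeat, AGGTCANAGGTCA, and its letters were looked for on both strands in RefSeq promoter windows of GRCm38.p6, which run from 250 bases before to 50 bases after a start site. Windows were found for 35 members, 39 windows in all. With at most 2 mismatches the repeat occurred in 5 of the 39 (12.8%), against 3.86% of 32851 windows of all genes; with at most 1 mismatch it occurred in 0 of the 39 and in 0.554% of all. The matches are printed with 8 bases on either side, in capitals where a letter matches the repeat or its reverse complement.
Slc25a20: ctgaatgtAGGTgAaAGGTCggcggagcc
Etfa: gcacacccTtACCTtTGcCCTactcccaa
Echs1: gcccgctcAGGTCAcgGGTCcacccctta
Plin2: agctttcagGACCccTGACCTaagtcaga
Rxra: ctgagtaatGGTCAtAGGcCAgtgggtgg
The match began 77 bases before the start of Etfa and 225 bases before that of Plin2, and it lay past the start of Slc25a20. No other motif was searched. None of the 5 genes was called between the diets, and neither Acaa1b nor Cyp4a32 had a match in its window. A match of letters is a description and shows no binding.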

How the data were processed

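The authors deposited TPM, 1 value per gene and cell, in a single table for 375 cells; per the submitters' processing notes, Bowtie2 and RSEM were used with the mouse build mm10. Their versions and the annotation are not stated in the labels. Sets were taken from the sample titles, and cells with at least 2000 genes above TPM 0 were kept (367); the cells were sorted into wells and no doublet caller was run. TPM was averaged over the cells of a set, and limma 3.58.1 (R 4.3.3) with a mean-variance trend was fitted to log2(mean TPM + 1) of genes averaging 1 TPM or more. Tests were two-sided, p-values were adjusted over all genes by Benjamini and Hochberg's method, and calls were made under 0.05. Fold changes (HFD over control) are on this scale, so those of low genes are understated. The script was tested on simulated data. The members and lists were chosen with earlier results of these data known. All members are given with their level. A test is printed for those called, those with an unadjusted p under 0.05, and Ppard, Ppara, Cpt1a, Hadha, Acaa2 and Pdk4. Of other pathway genes, those called and Fabp1, Cpt1b, Ppargc1a and Mgll are named; other genes fixed by name are not reported here. Coordinates and coding sequences are from GENCODE M21, promoters from RefSeq. Symbols that spreadsheets had turned into dates (4 rows) were dropped. Alternatives changed the pseudocount, filters, scaling, averaging, variance trend, cells and sets.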

Additional observations from a re-analysis of the deposited data

How the results depend on the processing

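The set numbers in the titles pair no animals by any label. Deviations of same-numbered sets from their diet means correlated at 0.233 over all tested genes and at 0.493 over the 40 members. With the number as a replicate block, limma called 7 members (Acadl, Acaa2, Acaa1b, Hsd17b4, Etfb and Acot1 higher, Cyp4a32 lower) among 634 genes, against 2 among 59. The next fits tested 38 to 41 members. Only Cyp4a32 was called with a pseudocount of 0.1 (53 genes called), median-ratio scaling (40) or logs averaged over cells (66). The same held with a mean of at least 5 TPM (64 genes), which leaves Acaa1b untested. Called members numbered 0 without a filter on low genes (0 of 19088 genes called) and with Rn45s left out (6 genes). They also numbered 0 with limma without a trend (6) and without Paneth- or goblet-marker cells (23). The 2 settings added after the data were seen, leaving out cells of 6 or more enterocyte markers or the highest cell of a gene in each set, also called 0 (10 and 21 genes). Wherever limma called 0 members, 5 to 8 had an unadjusted p under 0.05, against 6.47% to 11% of all genes in those fits. Leaving out 1 set called 1 member each time, among 69 to 146 genes. The mitochondrial minus peroxisomal median was 0.12 with a mean of at least 5 TPM, 0.057 with logs averaged over cells, 0.0239 with cells of at least 4000 genes, 0.0201 without cells of 6 or more enterocyte markers, and −0.32 to 0.071 with a set left out. Small fold changes turned sign: with Rn45s left out Ppard was −0.036, Cpt1a −0.095 and Hadha −0.011, by median-ratio scaling Cpt1a was −0.038, and with logs averaged over cells Pdk4 was 0.13. With a set left out Ppara ran from −0.47 to 0.018, Ppard from −0.24 to 0.50, Cpt1a from −0.013 to 0.21 and Pdk4 from −0.23 to 0.17. Acot1 ran from 0.22 to 0.95 and Angptl4 from 0.34 to 0.91 with a set left out. The cause of these changes was not tested. In cycling cells, logs averaged over cells gave 11 members higher (32.1% of all genes) and 4 lower (4.83%) in all 4 sets, and leaving out Paneth- or goblet-marker cells gave 2 higher (15% of all genes) and 13 lower (10.2%). In cells of 6 or more enterocyte markers, logs averaged over cells gave 15 higher (13.2%) and 2 lower (4.22%). The members' median, the difference of targets and receptors and the mean share of cells moved by less than their spread between sets under each alternative run. The planned comparison of cells with at least 3 enterocyte markers, its alternatives and the fit without such cells were not run, since 359 of 367 cells hold 3. Depth is unknown, so no limit from read counts can be given.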

Other observations

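Across the cells of a set, levels of the members were weakly related to each other. Over the 253 pairs of the 23 members held by at least 80% of cells in every set, the median Spearman correlation was 0.0495, 0.028, 0.0733 and 0.065 (control set 1, control set 2, HFD set 1, HFD set 2). These points share a library and a total, and no p is given. The following pairs were singled out after their values were seen. Acadvl and Acaa2, which open and close the mitochondrial cycle, had 0.165, 0.324, 0.354 and 0.329. Hadha and Hadhb, the subunits of the trifunctional protein, had 0.0806 and −0.00274 among control cells but 0.361 and 0.464 among HFD cells; the difference between diets was not tested. Their RefSeq start sites on chromosome 5 lie 273 bases apart on opposite strands, at 30154980 for Hadha and 30155253 for Hadhb (GRCm38.p6). Cyp4a10 and Cyp4a32 had 0.27, 0.359, 0.198 and 0.196, and Acaa1a and Acaa1b had −0.122, 0.0482, 0.0262 and 0.214.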
